A study of Mus musculus with 18 samples.

Results

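Transitional interstitial macrophages (tnsIMs) are lung cells caught between the monocyte that has just entered the tissue and the resident interstitial macrophage, and the comparison described here is that of tnsIMs with and without ezrin during acute lung inflammation. The members were chosen by sample name, and they are 6 of the 18 libraries of the study, 3 from WT and 3 from Ezr-KOm mice. Ezr-KOm mice carried floxed Ezr alleles together with the Cx3cr1tm1.1(cre)Jung allele, in which Cre recombinase is made under the Cx3cr1 promoter. The WT mice carried the same Cre allele with intact Ezr, so that Cre and the change at Cx3cr1 were common to both genotypes. Per the study's methods the strain was C57BL/6, and animals of both sexes aged 3 to 5 months were used. Each mouse received Pseudomonas aeruginosa LPS once, nebulized for 15 min as 12.5 mg in 5 ml, and the lungs were collected 24 h later. tnsIMs were sorted as CD45+ CD11b+ MHC-II+ Ly6C+ cells, next to monocyte-derived macrophages without MHC-II (moMs) and mature interstitial macrophages without Ly6C (matIMs), which had 6 libraries each. Cx3cr1 is also active in other myeloid and lymphoid cells. The libraries of a group are described as biological replicates, as many as there were mice per genotype. The sample labels do not tie a library to a mouse. Unless said otherwise, the p-values below rest on the spread between libraries within groups, estimated over all 18 libraries and not over tnsIMs alone.

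Ezrin is the founding member of the ezrin, radixin and moesin (ERM) family, which ties the plasma membrane to cortical actin. In its open, phosphorylated form it holds receptors such as CD44 at the cell surface and gathers signalling partners, among them the regulatory subunit of PI3K. Macrophages use this cortex for spreading, filopodia and adhesion to matrix, and monocytes that mature in an inflamed lung gain MHC class II and lose Ly6C while they settle. The study asked how the loss of ezrin changes the expression profile of these cells.

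The tnsIM libraries held between 16512783 counts (WT replicate 2) and 48460995 counts (Ezr-KOm replicate 2), and the other 4 held 23441556 to 24106617. All values below are counts divided by the library total in units of 1e6 (CPM), after scaling by the trimmed mean of M-values (TMM), and all differences are log2 fold changes of Ezr-KOm over WT from an edgeR quasi-likelihood fit of 15811 genes, given with the standard error (SE). The markers of the sort were abundant in both genotypes. The 13 markers of monocytes and macrophages, among them Csf1r, Cd68, Ccr2 and H2-Ab1, summed to 41240 to 80195 CPM in WT and to 46396 to 53423 CPM in Ezr-KOm libraries, with WT replicate 2 highest.

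Ezr itself was lower in every Ezr-KOm library. WT libraries had 679, 515 and 565 CPM of Ezr, and Ezr-KOm libraries had 234, 126 and 213 CPM. The groups did not overlap, and the log2 fold change was -1.62 (SE 0.24, adjusted p = 0.00365 by edgeR). The remaining counts were not split by exon, so they include any transcript that lacks the floxed part. In the same fit the log2 fold change of Ezr was -1.20 in moMs and -2.29 in matIMs. The other ERM genes were near the level of WT. Moesin (Msn), the most abundant ERM gene of these cells, had 2144 to 2450 CPM in WT and 1943 to 2902 CPM in Ezr-KOm tnsIMs, a log2 fold change of 0.04 (SE 0.14). Radixin (Rdx) had a log2 fold change of 0.06 (SE 0.16). Of the 20 genes of ERM proteins and their partners, Ezr was the 1 that passed an unadjusted p under 0.05, a threshold that 3.24% of all genes tested passed.

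By the rule of the study, which asks for a log2 fold change beyond 0.75 in either direction and for an unadjusted p under 0.05, 290 of 15811 genes changed in tnsIMs, which is 1.83%. Of these, 170 rose (1.08%) and 120 fell (0.759%). Below, rose and fell stand for genes that passed this rule or the adjusted p, unless the unadjusted p alone is named. At a Benjamini-Hochberg adjusted p under 0.05, 26 genes changed (0.164%), 13 in each direction (0.0822% each). The calls were unevenly spread over the genome. Of the genes that start in the first 30 Mb of chromosome 17 (GRCm39), where Ezr lies, 36 of 297 passed the study's rule (12.1%) and 14 passed the adjusted p. Of those between 130 and 160 Mb of chromosome 4, 27 of 326 passed the rule (8.28%) and 3 passed the adjusted p. In the rest of the genome 227 of 15188 genes passed the rule (1.49%), and 9 passed the adjusted p (0.0593%). The 2 regions were known from earlier results of these data, so that their counts are a description.

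**Figure D1:**
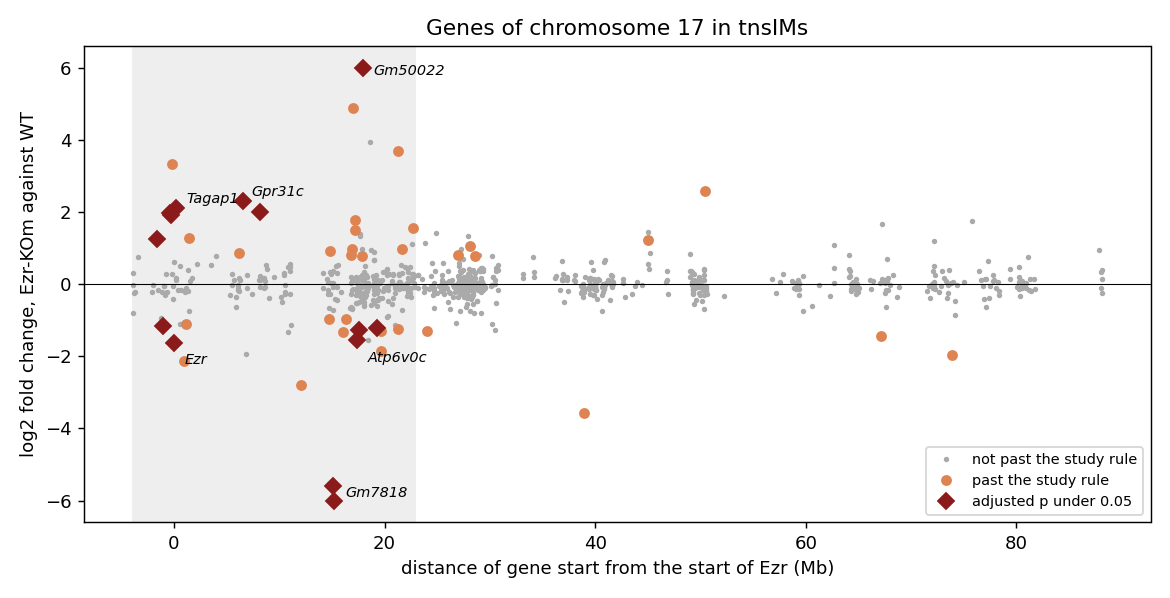
Genes of chromosome 17 by the distance of their start from that of Ezr (Mb, x axis) and their log2 fold change of Ezr-KOm over WT tnsIMs (y axis). The grey band holds the genes of the first 30 Mb, where 14 genes (diamonds) passed the adjusted p, and values beyond 6 in either direction (Gm50022, Gm7818) are drawn at 6 and -6.

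The changes on chromosome 17 went in both directions and were not limited to the neighbours of Ezr. Within 5 Mb of its start, 10 of 47 genes passed the study's rule (21.3%) and 6 the adjusted p. Between 15 and 25 Mb away, 21 of 211 did (9.95%), again with 6 at the adjusted p. Beyond 25 Mb the share was 8 of 487 (1.64%), close to that of the whole genome, and 0 passed the adjusted p.

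Among the closest neighbours, a gene of the dynein light chain family and genes of signalling proteins stood apart. Dynlt1b, which encodes a light chain of the dynein motor, had 5.55, 7.23 and 6.94 CPM in WT and 30.3, 21.2 and 25.5 CPM in Ezr-KOm libraries. Every Ezr-KOm library was above every WT library (482 of all genes, 3.05%, had this order and 436, 2.76%, the reverse, 5.81% together), and the log2 fold change was 1.97 (SE 0.17, adjusted p = 3.65e-06). Tagap1 had 7.97 to 10.03 CPM in WT and 56.7, 24.4 and 35.4 CPM in Ezr-KOm libraries (log2 fold change 2.11, SE 0.36, adjusted p = 0.0135). Again the groups did not overlap. Synj2, a phosphoinositide phosphatase, went the other way. It had 42.2, 35.4 and 38.9 CPM in WT and 17.8, 17.6 and 16.3 CPM in Ezr-KOm libraries, all lower (log2 fold change -1.17, SE 0.17, adjusted p = 0.00318). Tmem242, with a log2 fold change of 1.25 (adjusted p = 0.0130), and Tmem181b-ps, with 1.92 (adjusted p = 0.00573), also rose. Similarly named genes nearby differed from these. Dynlt1a had -0.22, Dynlt1c 0.29, Dynlt1f -0.42, Tagap -0.22 and Tmem181a 0.28, and none of them passed, while Tmem181c-ps rose (3.32). The search for copies described below covered only genes outside the regions. Whether reads were counted at the wrong one of these genes was not tested.

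Further along the chromosome, Atp6v0c, the proteolipid subunit that forms the proton-carrying ring of the vacuolar ATPase, had 424, 348 and 434 CPM in WT and 177, 89.8 and 147 CPM in Ezr-KOm libraries. The groups did not overlap (log2 fold change -1.55, SE 0.20, adjusted p = 0.000666). Rnps1, an RNA-binding protein of the exon junction complex, had 62.8, 73.7 and 83.9 CPM in WT and 28.7, 27.4 and 35.1 CPM in Ezr-KOm libraries (log2 fold change -1.28, SE 0.14, adjusted p = 0.000137). Decr2, a peroxisomal enzyme of fatty acid oxidation, fell by 1.21 on the log2 scale (adjusted p = 0.00298). In each of these 3 genes every Ezr-KOm library was below every WT library. Gpr31c, with a log2 fold change of 2.29, and 9030025P20Rik, with 1.99, rose from under 3 CPM in WT (adjusted p = 0.0228 and 0.00435). The similarly named Gpr31b passed the study's rule (0.87) and Gpr31a did not (0.49). Tagap1, Tmem242 and Gpr31c each passed the adjusted p in 2 of the 6 fits that left out 1 library, with 0.136, 0.141 and 0.182 at most.

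Some genes of the region were near the floor of detection in 1 genotype, taken as 3 counts per library. Gm50022 had 0 counts in each WT library and 277, 694 and 289 counts in the Ezr-KOm libraries, and it was at least 86.9-fold higher in Ezr-KOm. Of the tnsIM libraries, only those of Ezr-KOm could carry it through the low-count filter. Its call, among the 14 of the chromosome 17 region at the adjusted p, is therefore a description. Gm7805 had 38, 15 and 33 counts in WT and 0, 0 and 2 in Ezr-KOm, at least 12.3-fold lower. Gm7818 had 9, 6 and 20 counts in WT and 0 in each Ezr-KOm library, at least 4.94-fold lower. The Ezr-KOm tnsIM libraries could not carry Gm7805 or Gm7818 through the filter. Their calls, also among the 14, are therefore descriptions as well.

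On chromosome 4, 3 genes passed the adjusted p, and all of them fell. Hmgn2, a nucleosome-binding protein, had 75.2, 59.99 and 76.6 CPM in WT and 34.9, 29.7 and 25.01 CPM in Ezr-KOm libraries (log2 fold change -1.24, SE 0.23, adjusted p = 0.0313). Zfp46 had 11.4, 8.81 and 15.3 CPM in WT and 4.53, 3.77 and 4.15 CPM in Ezr-KOm libraries (log2 fold change -1.52, adjusted p = 0.0316). Tcea3, a transcription elongation factor, had 2.50, 1.78 and 2.66 CPM in WT and at most 0.299 CPM in Ezr-KOm libraries (log2 fold change -3.44, adjusted p = 0.0123). None of the 3 overlapped between the genotypes. The Ezr-KOm tnsIM libraries could not carry Tcea3 through the low-count filter, so its call is a description. Without 1 library in turn, the adjusted p passed in 0 of 6 fits for Hmgn2 (0.307 at most), 1 of 6 for Zfp46 (0.223 at most) and 3 of 6 for Tcea3 (0.0653 at most).

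The calls inside the 2 regions recurred in the other macrophages. The study gives as many mice per genotype as there were libraries in a group, so the populations may share mice. Recurrence among them is then no independent replication. The fit and the interaction tests below treated all libraries as independent. Of the genes that passed the study's rule in tnsIMs, 24 of 36 on chromosome 17 and 14 of 27 on chromosome 4 passed it in the same direction in moMs and in matIMs as well, whereas of the 227 genes elsewhere 23 did and 159 passed it in tnsIMs alone. Of all genes tested, 2.51% passed the rule in moMs and 2.4% in matIMs. Passing in one population and not in another is no test of the difference, and the difference was tested gene by gene as an interaction. At an adjusted p under 0.05, edgeR called 0 of 15811 genes whose response to the loss of ezrin differed between tnsIMs and moMs (233 genes at an unadjusted p under 0.05, 1.47%) and 0 between tnsIMs and matIMs (183 genes, 1.16%). DESeq2 also called 0 in both (262 and 218 genes at an unadjusted p under 0.05). No gene can therefore be named as changed in tnsIMs and not in the other populations.

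Of the 9 genes outside the 2 regions at an adjusted p under 0.05, 5 are near-identical copies of a gene inside them. They are Atp6v0c-ps2 and Rnps1-ps on chromosome 6, copies of Atp6v0c and Rnps1, Hmga1b on chromosome 11, a copy of Hmga1, Gm14292 on chromosome 2, a copy of Wtap, and Eno1b, a copy of Eno1 of chromosome 4. Gm14292 had 0, 0 and 0.235 CPM in WT and 1.83, 0.958 and 2.42 CPM in Ezr-KOm libraries. Of the tnsIM libraries, only those of Ezr-KOm could carry it through the low-count filter, so its call is a description. Among all genes outside the regions with a transcript to compare, 55 of 15135 had such a copy relation (0.363%), at an identity of at least 90% over at least 80% of the transcript of the copy. Reads may be hard to assign between such similar sequences, so the counts of copy and parent are uncertain, and the reads themselves were not examined. The stretches below, from coding exons of the parent and the matching part of the copy on GRCm39, are shown because they tell how little separates 2 genes with opposite changes. Capitals mark the bases that differ.

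Atp6v0c, chr17:24383766-24383856, minus strand: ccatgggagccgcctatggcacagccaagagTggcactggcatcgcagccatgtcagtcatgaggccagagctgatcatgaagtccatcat
Atp6v0c-ps2, chr6:37783100-37783190, plus strand: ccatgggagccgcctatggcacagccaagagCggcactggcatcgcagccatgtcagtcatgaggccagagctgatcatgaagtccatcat
Rnps1, chr17:24639195-24639285, plus strand: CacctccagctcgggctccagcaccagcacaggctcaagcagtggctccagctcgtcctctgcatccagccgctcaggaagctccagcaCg
Rnps1-ps, chr6:7983123-7983213, minus strand: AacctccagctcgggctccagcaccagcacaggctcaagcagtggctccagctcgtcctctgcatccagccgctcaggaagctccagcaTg
Hmga1, chr17:27778565-27778655, plus strand: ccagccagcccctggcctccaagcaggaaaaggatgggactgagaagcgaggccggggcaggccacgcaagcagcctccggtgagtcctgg
Hmga1b, chr11:120653737-120653827, plus strand: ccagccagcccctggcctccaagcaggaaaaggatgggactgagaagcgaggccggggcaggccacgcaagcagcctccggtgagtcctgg

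Counted from 1 at the 5′ end of each stretch, with the base of the parent first, the differences are T32C for Atp6v0c and its copy, and C1A and C90T for Rnps1 and its copy. The stretches of Hmga1 and Hmga1b are identical. The 465 bases of Atp6v0c-ps2 matched coding exons of Atp6v0c with 1 mismatch (99.78% identity), and the 843 bases of Rnps1-ps matched those of Rnps1 with 5 (99.41%).

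In each of these 3 pairs the copy rose, and the parent was lower in every Ezr-KOm library than in any WT library. Atp6v0c-ps2 had 3.50, 2.73 and 3.64 CPM in WT and 90.9, 82.7 and 80.3 CPM in Ezr-KOm libraries, a log2 fold change of 4.67 (SE 0.19, adjusted p = 2.16e-11). Rnps1-ps had 0.167, 0.380 and 0.627 CPM in WT and 17.4, 15.4 and 19.6 CPM in Ezr-KOm libraries (log2 fold change 5.45, SE 0.29, adjusted p = 1.48e-09). Hmga1b had under 0.5 CPM in each WT library and 26.7, 5.47 and 14.3 CPM in Ezr-KOm libraries (log2 fold change 5.42, SE 0.64, adjusted p = 0.000202). The WT tnsIM libraries alone could not carry Rnps1-ps or Hmga1b through the low-count filter, so the calls of these copies are a description. The gain in the copies was smaller than the drop of Atp6v0c and Rnps1. When copy and parent were summed, the log2 ratio of the group means was -0.87 for Atp6v0c and -0.63 for Rnps1, against -0.07 for Hmga1 and -0.30 for Eno1. Hmga1 alone, an architectural chromatin protein, had 57.4, 49.2 and 62.8 CPM in WT and 33.3, 37.1 and 45.2 CPM in Ezr-KOm libraries (log2 fold change -0.55, SE 0.19). Eno1, the glycolytic enzyme enolase, had a log2 fold change of -0.44 (SE 0.20), with overlapping groups. Whether reads of 1 gene were counted at the other was not tested.

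**Figure D2:**
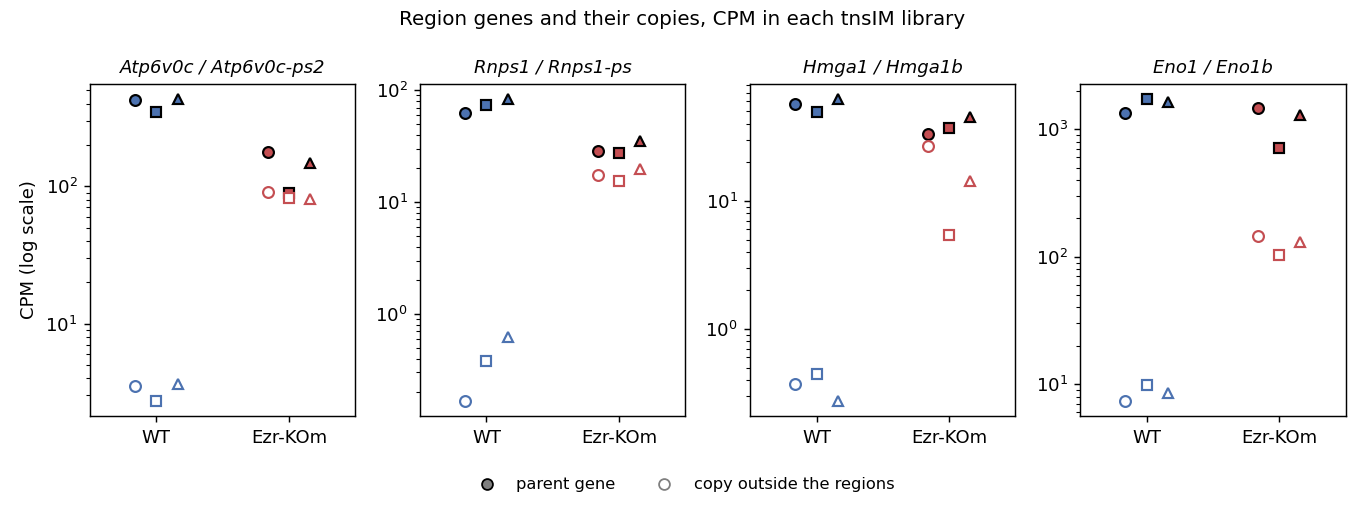
CPM (log scale) of 4 genes of the chromosome 17 and 4 regions (filled symbols) and of their copies elsewhere (open symbols) in each tnsIM library, with circles, squares and triangles for replicates 1, 2 and 3. In WT libraries the copies lie far under their parents, and in Ezr-KOm libraries Atp6v0c-ps2 rises to 80.3 to 90.9 CPM while Atp6v0c drops to 89.8 to 177 CPM.

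The 4 genes outside the regions at an adjusted p under 0.05 that are no copies are Kcnn4, Ercc1, Ptx3 and 4930481A15Rik. Kcnn4, the calcium-activated potassium channel KCa3.1, which sets the membrane potential during calcium signalling, had 168, 242 and 185 CPM in WT and 70.3, 75.6 and 43.1 CPM in Ezr-KOm libraries. Every Ezr-KOm library was lower, the log2 fold change was -1.65 (SE 0.21, adjusted p = 0.000423), and the adjusted p stayed under 0.05 without each library in turn (at most 0.00358). With the tnsIM libraries fitted alone it was 0.0663, and none of these 4 genes passed. Its log2 fold change was -1.55 in moMs and -1.19 in matIMs.

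Ptx3, the long pentraxin that opsonizes microbes and binds complement, rose. It had 15.3, 14.5 and 12.7 CPM in WT and 30.1, 29.5 and 30.9 CPM in Ezr-KOm libraries, which were all above WT and close to each other. The log2 fold change was 1.09 (SE 0.20, adjusted p = 0.0245), and it was 1.23 in moMs and 0.68 in matIMs. Without any 1 library it kept its direction (1.01 to 1.18) but not the adjusted p, which reached 0.200.

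Ercc1, a subunit of the nuclease of nucleotide excision repair, had 23.8, 34.9 and 17.8 CPM in WT and 11.9, 14.1 and 11.5 CPM in Ezr-KOm libraries. The groups did not overlap (log2 fold change -1.02, SE 0.20, adjusted p = 0.0355), and without WT replicate 2 the log2 fold change was -0.74. The adjusted p passed in 1 of the 6 fits without 1 library, and was 0.325 at most. The long non-coding gene 4930481A15Rik had 30, 13 and 17 counts in WT and 2, 1 and 2 counts in Ezr-KOm libraries, at least 8.80-fold lower. Its adjusted p passed in 1 of those 6 fits (0.172 at most). The Ezr-KOm tnsIM libraries could not carry this gene through the low-count filter, so its call is a description.

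Kcnn4 and Ercc1 both lie on chromosome 7, at 24069688 and 19078703. Between 10 and 30 Mb of that chromosome, a window chosen after these values were seen, 5 of 247 genes passed the study's rule (2.02%), a share near that of all genes, and each of the 5 fell. Beside Kcnn4 and Ercc1 they were Slc1a5, C5ar2 and Irgc1. Slc1a5, a glutamine transporter, had 272, 575 and 283 CPM in WT and 224, 227 and 216 CPM in Ezr-KOm libraries (log2 fold change -0.76, SE 0.21). WT replicate 2 stood above the rest, and without it the log2 fold change was -0.32. C5ar2, the second receptor of the complement fragment C5a, had 6.97, 5.64 and 8.93 CPM in WT and 2.83, 5.01 and 2.42 CPM in Ezr-KOm libraries (-1.06, SE 0.35). The neighbouring C5ar1, the receptor that drives chemotaxis to C5a, had 889, 1058 and 818 CPM in WT and 622, 877 and 655 CPM in Ezr-KOm libraries (-0.36, SE 0.16).

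**Figure D3:**
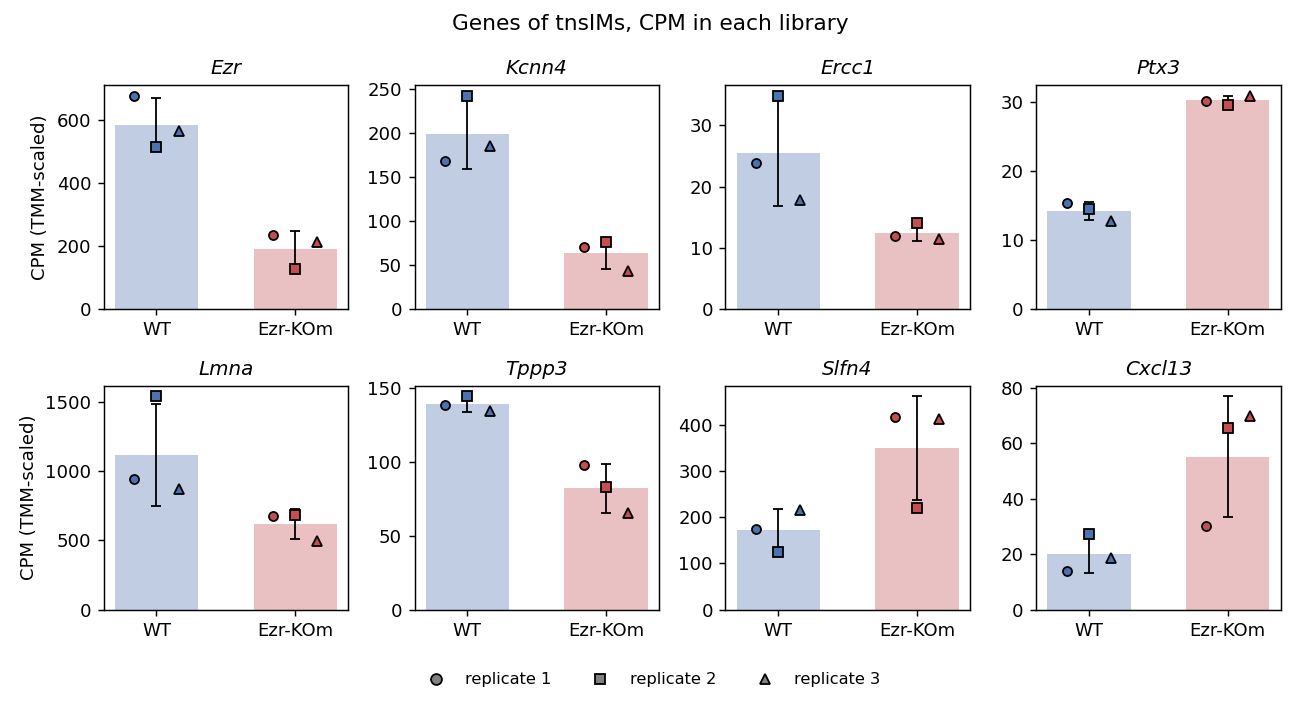
CPM of 8 genes in each tnsIM library, WT in blue and Ezr-KOm in red, with bars at the mean of 3 libraries, error bars of 1 SD and a symbol for each replicate. Ezr, Kcnn4, Ercc1, Lmna and Tppp3 are lower and Ptx3, Slfn4 and Cxcl13 higher in every Ezr-KOm library than in any WT library.

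Most of the other genes that passed the study's rule outside the regions were scarce. Of the 227 genes, 125 had a mean under 1 CPM over the 6 libraries, against a median of 10.9 CPM over all genes tested, and 36 had a mean of 5 CPM or more, of which 25 rose and 11 fell. None of the genes described from here on, unless named above, passed the adjusted p in this fit.

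Among the genes that rose, several encode proteins of immune cells. Cxcl13, the chemokine that draws B cells, had 14.1, 27.3 and 18.6 CPM in WT and 30.04, 65.6 and 69.9 CPM in Ezr-KOm libraries. The groups did not overlap (log2 fold change 1.47, SE 0.38, adjusted p = 0.360), and once the replicate number was added as a block the adjusted p was 0.0228. Slfn4, a myeloid Schlafen gene induced by interferon, had 175, 124 and 216 CPM in WT and 417, 220 and 412 CPM in Ezr-KOm libraries (log2 fold change 1.02, SE 0.29). Il7r, the receptor chain for IL-7 and TSLP, had 16.3, 14.9 and 19.2 CPM in WT and 28.5, 26.4 and 31.5 CPM in Ezr-KOm libraries (0.77, SE 0.18). In both genes every Ezr-KOm library was above WT. Tspan33, with a log2 fold change of 0.87, and Cdo1, the enzyme that oxidizes cysteine, with 0.76, rose without overlap as well.

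Cnbd2 rose in 2 libraries only. It had 7.80, 7.23 and 9.40 CPM in WT and 47.8, 7.46 and 69.4 CPM in Ezr-KOm libraries (log2 fold change 2.34, adjusted p = 0.0810), so that Ezr-KOm replicate 2 lay within the WT range. Without that library the log2 fold change was 2.84 (adjusted p = 1.29e-05).

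Among the genes that fell, Lmna, which encodes the lamins A and C of the nuclear envelope, was the most abundant. It had 944, 1543 and 873 CPM in WT and 673, 685 and 496 CPM in Ezr-KOm libraries, without overlap (log2 fold change -0.86, SE 0.19, adjusted p = 0.138). WT replicate 2 was again the highest, the log2 fold change without it was -0.55, and with the replicate block the adjusted p was 0.0378. Glp1r, the GLP-1 receptor, had 18.1, 17.6 and 36.4 CPM in WT and 5.07, 9.82 and 14.1 CPM in Ezr-KOm libraries (-1.31, SE 0.31). It starts at 31120791 of chromosome 17, just past the bound of the region set at 30 Mb. Gdf3, a growth factor of the TGF-beta family, had 107, 73.1 and 64.7 CPM in WT and 39.8, 67.7 and 35.8 CPM in Ezr-KOm libraries (-0.77, SE 0.26). Alox15, the 12/15-lipoxygenase of lipid mediator synthesis, had 15.9, 12.7 and 3.45 CPM in WT and 3.03, 2.47 and 4.24 CPM in Ezr-KOm libraries (-1.73, SE 0.66). Both of these overlapped between the genotypes.

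With the replicate block, 14 genes outside the regions and 20 inside passed the adjusted p, in place of 9 and 17 (0.215% of all genes tested, against 0.164%). The genes gained outside were Cxcl13, Lmna, Tppp3, Opa3 and Ccn5, and those gained inside were Pim1, Pdpn and Tnfrsf14. Opa3, Ccn5, Pim1, Pdpn and Tnfrsf14 are named after their values were seen. Pim1, a serine and threonine kinase induced by cytokines, passed the study's rule with a log2 fold change of 1.55 (SE 0.38), Tnfrsf14, the herpesvirus entry mediator, with 1.11 (SE 0.28), and Pdpn, podoplanin, a surface glycoprotein that binds ezrin and moesin, with -1.84 (SE 0.45).

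The genes that the study names for tnsIMs were chosen there on these samples, so their direction is no independent evidence. Pold2, Pkmyt1 and Fpr2 are readings of the names p50, Myt1 and Fprl1, which can also stand for other genes. None of the 12 met the study's rule in this fit, and 5 had an unadjusted p under 0.05, where 3.24% of all genes did. For Csf1, Irf1 and p53 the paper reports lower levels in Ezr-KOm tnsIMs from a figure whose legend names a t-test, which is another test than this fit. Csf1, the growth factor that keeps macrophages alive, had 149, 208 and 217 CPM in WT and 110, 161 and 149 CPM in Ezr-KOm libraries, a log2 fold change of -0.45 (SE 0.21) with overlapping groups. Pkmyt1, the kinase that holds CDK1 back before mitosis, had 4.30, 3.49 and 3.72 CPM in WT and 2.53, 2.77 and 1.91 CPM in Ezr-KOm libraries (-0.67, SE 0.29). It lies in the chromosome 17 region. Il6 had 257, 175 and 238 CPM in WT and 321, 234 and 360 CPM in Ezr-KOm libraries (0.45, SE 0.21).

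Fpr2, a formyl peptide receptor of the chromosome 17 region, had a log2 fold change of 0.54 (SE 0.20), and Tnfrsf8, which encodes CD30 and lies in the chromosome 4 region, had 0.68 (SE 0.27). The other 7 had values that did not pass. Trp53, which encodes p53, had 85.7, 92.1 and 85.3 CPM in WT and 78.0, 74.5 and 74.0 CPM in Ezr-KOm libraries, a narrow shift without overlap (-0.22, SE 0.11). Pold2, a subunit of DNA polymerase delta, had -0.39 (SE 0.20), Pdgfa -0.27 (SE 0.21) and the transcription factor Irf1 -0.14 (SE 0.31). The paper reports Pdgfa as increased in Ezr-KOm tnsIMs. S1pr1 had -0.02 (SE 0.27), Il1a 0.20 (SE 0.29) and the neutrophil chemokine Cxcl2 0.20 (SE 0.31).

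Transcripts of the adhesion and actin machinery that ezrin works with gave no call. Of 22 integrin genes tested 0 had an unadjusted p under 0.05 by edgeR and 0 by DESeq2, with a median log2 fold change of 0.01 by edgeR. The same held for 26 genes of focal adhesions (0 genes, median -0.06), 43 actin regulators (0 genes, median 0.01) and, by edgeR, for 27 genes of PI3K, Akt and mTOR signalling (0 genes, 1 by DESeq2, median 0.04). The median of all genes tested was 0.00, and 50.4% of them lay above 0. Members of a group may move together between libraries, so counts above or below 0 here and below are descriptions. The integrin chain Itgb2 had 1366 to 1502 CPM in WT and 1250 to 1402 CPM in Ezr-KOm libraries (log2 fold change -0.09, SE 0.11), and Itga5, the fibronectin receptor chain, had -0.14 (SE 0.15). The adhesion protein zyxin (Zyx) had 582 to 608 CPM in WT and 503 to 656 CPM in Ezr-KOm libraries (log2 fold change -0.00, SE 0.13), talin (Tln1) -0.07 (SE 0.20), beta-actin (Actb) 0.11 (SE 0.24) and Akt1 -0.05 (SE 0.14). Profilin (Pfn1) had -0.37 (SE 0.20), and -0.04 without WT replicate 2.

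Cell cycle genes were close to the level of WT. Of 42 S phase genes 29 lay below 0, with a median of -0.10, and 1 passed an unadjusted p under 0.05 (1.43% of all genes were lower at that threshold). That gene was Mcm6, part of the replicative helicase, with 51.6, 56.7 and 51.6 CPM in WT and 41.97, 40.04 and 38.03 CPM in Ezr-KOm libraries (-0.41, SE 0.17), every Ezr-KOm library being lower. Of 52 G2/M genes (median 0.03) 3 passed the study's rule (1.83% of all genes), Ttk and Cdca2 lower and Cenpe higher, at under 2 CPM in each library. Pkmyt1, described above, was the 1 of 37 polymerase and checkpoint genes to pass an unadjusted p under 0.05. Of 25 targets of p53 and 38 genes of the BCL2 family and caspases, 0 passed it by edgeR and 0 by DESeq2 (medians -0.00 and 0.06). Cdkn1a, which encodes the CDK inhibitor p21, had 973 to 1871 CPM in WT and 1315 to 1617 CPM in Ezr-KOm libraries, and the survival factor Mcl1 had a log2 fold change of 0.13 (SE 0.19).

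Most cytokine and chemokine genes lay above 0 (50.4% of all genes did), and few of them passed an unadjusted p under 0.05 (3.24% of all genes). Of 29 cytokine genes 21 lay above 0 (median 0.16) and 2 had an unadjusted p under 0.05, Il6 and the EGF receptor ligand Areg. Areg had 92.2, 50.4 and 52.4 CPM in WT and 128, 168 and 64.0 CPM in Ezr-KOm libraries (0.89, SE 0.37), with overlap. Of 27 chemokine genes 18 lay above 0 (median 0.13). Beside Cxcl13, Ccl22, which draws CCR4+ T cells, had 124, 147 and 132 CPM in WT and 154, 232 and 205 CPM in Ezr-KOm libraries (0.55, SE 0.20). Cxcl5 had -0.72 (SE 0.32). Ccr7, the receptor for homing to lymph nodes, had 99.9, 128 and 94.5 CPM in WT and 136, 181 and 143 CPM in Ezr-KOm libraries (0.51, SE 0.24). In Ccl22 and Ccr7 every Ezr-KOm library was above WT.

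In the Toll-like receptor pathway 1 of 30 genes, the RNA sensor Tlr7, had an unadjusted p under 0.05 (0.51, SE 0.20). Of 28 genes of NF-kappaB and AP-1 1 did, the phosphatase Dusp1. Both counts are near the share of all genes tested, 3.24%. Dusp1, which lies in the chromosome 17 region, had 7457, 13418 and 7942 CPM in WT and 8059, 6766 and 7124 CPM in Ezr-KOm libraries (-0.39, SE 0.18). Its highest value was that of WT replicate 2, and without it the log2 fold change was -0.07.

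The interferon-stimulated genes had the highest median of the 26 gene groups described here, and they split the Ezr-KOm libraries. Of 49 genes tested 36 lay above 0, with a median log2 fold change of 0.33, and 4 of 49 had an unadjusted p under 0.05, all higher (1.81% of all genes were higher at that threshold). Mx1, a dynamin-like GTPase that blocks viruses, had 51.4, 41.2 and 48.7 CPM in WT and 89.2, 44.9 and 111 CPM in Ezr-KOm libraries (0.79, SE 0.27). Mx2 had 9.89, 13.6 and 9.25 CPM in WT and 20.7, 11.4 and 23.6 CPM in Ezr-KOm libraries (0.76, SE 0.31). In both genes Ezr-KOm replicates 1 and 3 were above WT and replicate 2 lay within it.

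The RNA helicase Ddx60 had 22.6, 17.2 and 20.2 CPM in WT and 37.1, 17.5 and 43.8 CPM in Ezr-KOm libraries (0.71, SE 0.27). Oas1g, of the oligoadenylate synthetase family, had 46.5, 53.8 and 47.7 CPM in WT and 85.6, 48.8 and 75.5 CPM in Ezr-KOm libraries (0.50, SE 0.19). The split was the same. Relative to the mean of the WT libraries on the log2 scale of CPM plus 0.5, the median of the 49 genes was 0.59 and 0.55 in Ezr-KOm replicates 1 and 3 and -0.32 in Ezr-KOm replicate 2, where 7 of 49 lay above the WT mean. The WT libraries had medians of -0.03, -0.18 and 0.11.

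Without Ezr-KOm replicate 2, 23 of 49 genes had an unadjusted p under 0.05, all higher, against 5.24% of all genes in that fit (2.97% higher), and the median was 0.53. None of them passed the adjusted p, which 0.129% of all genes did. Ezr-KOm replicate 2 had the lowest median of these genes, so leaving it out raises them, and the count of 23 is a description. Without Ezr-KOm replicate 1 or replicate 3, 1 of 49 genes passed the unadjusted p, with medians of 0.19 and 0.24. With the replicate block 13 did, 11 of them higher, at a background of 5.49% (3.02% higher). The medians of both replicate 2 libraries lay below the WT mean, yet 16 of 49 genes lay above it in WT replicate 2. With both left out, a setting chosen after the data were seen, 21 of 49 passed, all higher. The median was then 0.54 and the background 3.92%, of which 2.27% higher. As the choice followed the values, this count is a description and no test.

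**Figure D4:**
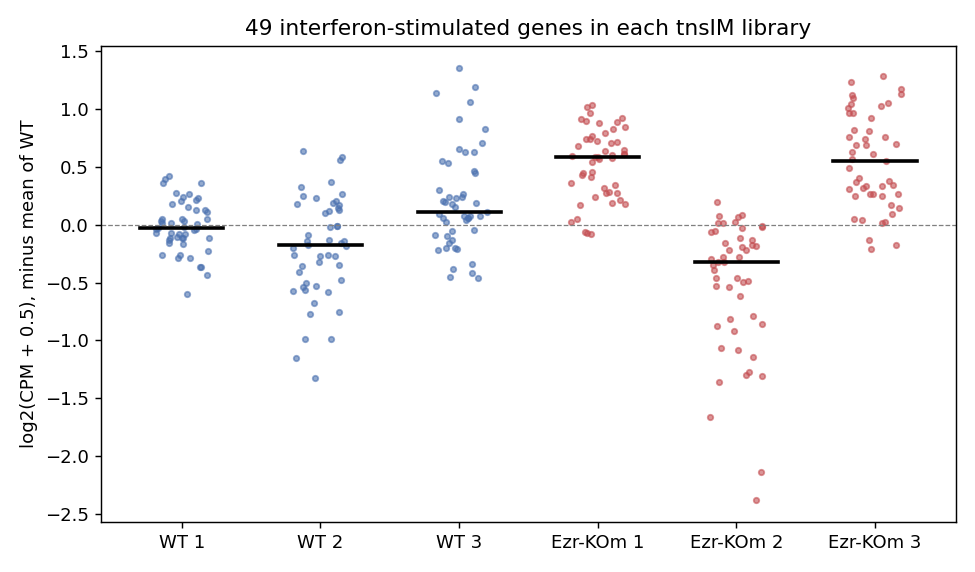
Each point is 1 of 49 interferon-stimulated genes in 1 tnsIM library, as log2 of CPM plus 0.5 minus the mean of the WT libraries (y axis), and black lines are medians. Ezr-KOm replicates 1 and 3 lie above WT (medians 0.59 and 0.55) and Ezr-KOm replicate 2 below it (-0.32).

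Promoters of many interferon-stimulated genes carry an element bound by the interferon-activated transcription factor complex ISGF3 and by IRFs, and 2 promoters with it are shown to place it beside the values above. GAAANNGAAA was searched on both strands of the RefSeq promoters (GRCm38.p6), from 250 bases before to 50 bases after each start, with overlapping matches counted once per gene. It was found in 26 of the 39 interferon-stimulated genes tested that had an entry (66.7%), against 4.05% of all tested genes with one. Promoters of Mx1 and Mx2 were not analysed here. Below, capitals mark the matches that lie whole in the stretch shown, which in Oas1g are 2 that overlap, the other starting 12 bases before the start.

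Ddx60, chr8:61928009-61928068, plus strand, match starting 53 bases before the start: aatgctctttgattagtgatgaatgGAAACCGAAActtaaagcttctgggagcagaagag
Oas1g, chr5:120887614-120887656, minus strand, first match starting 18 bases before the start: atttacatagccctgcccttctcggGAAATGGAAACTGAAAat

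The transcription factors of this response did not pass an unadjusted p under 0.05 (0 of 11 interferon regulatory factors by edgeR and by DESeq2, median -0.01). Irf7 had 594, 648 and 435 CPM in WT and 922, 557 and 697 CPM in Ezr-KOm libraries (0.37, SE 0.23).

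The summed MHC class II genes were highest in 1 WT library. The 12 genes of MHC class II summed to 41663, 62823 and 30489 CPM in WT and to 41083, 41152 and 37921 CPM in Ezr-KOm libraries, and the groups overlapped, with WT replicate 2 on top. The median log2 fold change was -0.00, and 0.16 without WT replicate 2. H2-Oa, a chain of the chaperone H2-O that restrains peptide loading, was the 1 gene with an unadjusted p under 0.05 (0.72, SE 0.29). Of all genes tested 3.24% passed that threshold. Of 22 MHC class I genes H2-Q4 was the 1 with an unadjusted p under 0.05 (0.79, SE 0.35).

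Genes that mark the steps of maturation moved little. The 25 genes of classical monocytes had a median of 0.08 and summed to 21452 to 24736 CPM in WT and to 20703 to 21365 CPM in Ezr-KOm libraries, without overlap. Without Lyz2, the most abundant, the sums overlapped at 9326 to 11963 and 10401 to 11737 CPM. Lyz2, which encodes lysozyme, was the 1 gene of the 25 with an unadjusted p under 0.05, where 3.24% of all genes passed. Lyz2 had 12468, 15410 and 10203 CPM in WT and 10158, 10964 and 8966 CPM in Ezr-KOm libraries (-0.34, SE 0.16), with overlap. Of 32 genes of resident interstitial macrophages 25 lay above 0 (median 0.11), and the haemoglobin scavenger receptor Cd163 (1.07, SE 0.44) and the phosphatidylserine receptor Timd4 (0.79, SE 0.32) rose at under 5 CPM in each library. Among 31 growth factors and lineage regulators, Id2, an inhibitor of helix-loop-helix factors, had 414, 338 and 351 CPM in WT and 626, 450 and 447 CPM in Ezr-KOm libraries (0.47, SE 0.21). Tfec had 0.40 (SE 0.18).

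Of 40 genes of matrix and matrix proteases (median 0.06) 2 passed the study's rule, where 1.83% of all genes did. Mmp13, a collagenase, had 19.3, 14.8 and 15.0 CPM in WT and 28.2, 23.6 and 36.2 CPM in Ezr-KOm libraries (0.84, SE 0.29). Mmp25, of the chromosome 17 region, rose by 0.80 on the log2 scale (SE 0.29). In both the groups did not overlap.

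Among 31 genes of sphingosine-1-phosphate and chemoattractant signalling 7 had an unadjusted p under 0.05, 4 higher and 3 lower, where 3.24% of all genes passed. Of these, Fpr2 and Ccr6 (1.26, SE 0.38) lie in the chromosome 17 region, and C5ar1 and C5ar2 are neighbours on chromosome 7. The others were Ccr7, S1pr5 (-1.01, SE 0.41) and Sphk1, the kinase that makes sphingosine-1-phosphate (0.47, SE 0.20). The median of the group was -0.02.

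In metabolism and housekeeping groups, Atp6v0c was the 1 of 40 genes of the V-ATPase and lysosome (median -0.02) to pass the study's rule, against 1.83% of all genes. Cathepsin C (Ctsc, -0.33, SE 0.15) and the beta-galactosidase Glb1 (-0.31, SE 0.13) passed the unadjusted p. Of 22 glycolysis genes, Pfkm rose at under 4 CPM (0.77, SE 0.29) and Eno1 was lower. Of 11 genes of heat shock and tissue dissociation, which lay below 0 in 9, the chaperone Hsph1 had 72.2, 103 and 92.6 CPM in WT and 64.4, 49.9 and 62.1 CPM in Ezr-KOm libraries (-0.60, SE 0.18), without overlap.

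Transcripts of cells outside the gate were present in all 6 libraries and varied between them. In bulk RNA a change in the number of such cells cannot be told from a change in RNA per cell. The 19 markers of alveolar epithelium summed to 3659, 5187 and 4692 CPM in WT and to 4383, 3590 and 2554 CPM in Ezr-KOm libraries, surfactant transcripts (Sftpa1, Sftpc) being the most abundant. The range overlapped, 15 of 19 markers lay below 0 (median -0.32) and 0 passed an unadjusted p under 0.05 by edgeR or by DESeq2. The 20 endothelial markers summed to 888, 1211 and 1366 CPM in WT and to 681, 1097 and 1109 CPM in Ezr-KOm libraries, with 18 of 20 below 0 (median -0.22). Plvap, of the fenestrae of endothelium, had -0.70 (SE 0.26) and Tmem100 -0.58 (SE 0.23). Fibroblast and mural markers leaned the other way, with 14 of 19 above 0 (median 0.20), and Pdgfra rose (0.98, SE 0.32).

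The 11 airway markers found were the 1 list of markers of other cells whose sums did not overlap, at 167 to 179 CPM in WT and 84.2 to 130 CPM in Ezr-KOm libraries. The most abundant of them was Tppp3, a tubulin-binding protein of ciliated cells, with 139, 145 and 135 CPM in WT and 97.9, 83.3 and 65.2 CPM in Ezr-KOm libraries (-0.76, SE 0.18; adjusted p = 0.219, and 0.0378 with the replicate block). Without Tppp3 the list summed to 21.9 to 41.5 CPM in WT and 17.8 to 32.4 CPM in Ezr-KOm libraries and overlapped, and Foxj1, Dynlrb2, Muc5b and Reg3g were under 0.4 CPM in each library. All 7 airway markers tested lay below 0 (median -0.78), and beside Tppp3 the secretory cell genes Scgb3a2 (-2.33, SE 0.90) and Bpifa1 (-1.51, SE 0.59) fell, at no more than 1.21 CPM. The part of airway cells in the change of Tppp3 was not tested.

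**Figure D5:**
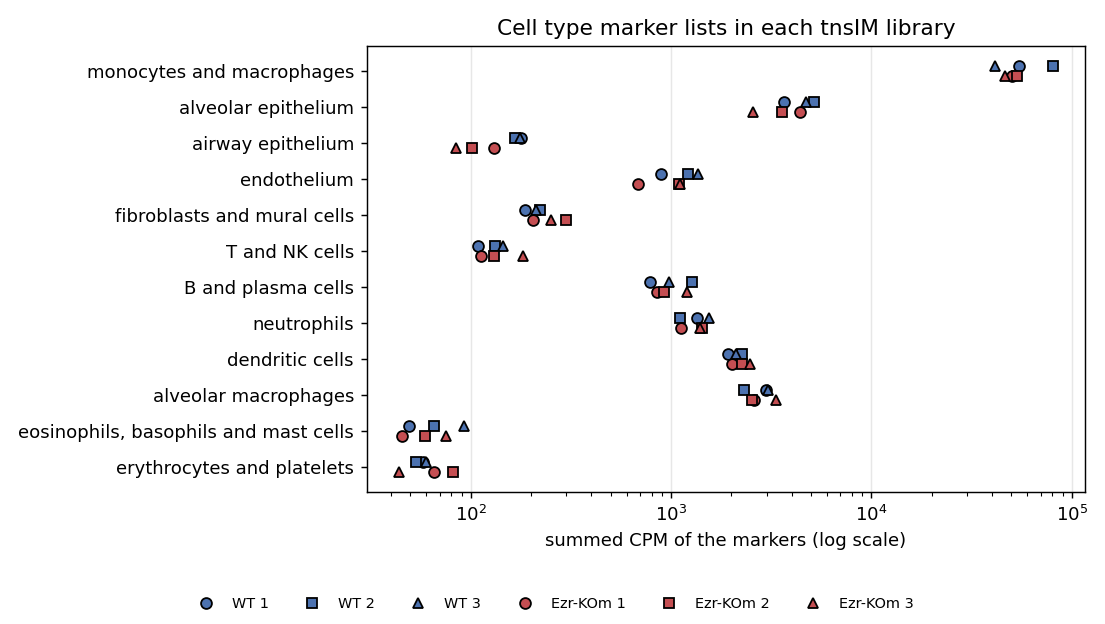
Summed CPM (log scale, x axis) of 12 lists of cell type markers in each tnsIM library, WT in blue and Ezr-KOm in red, with a symbol for each replicate. Airway epithelium, at 167 to 179 CPM in WT and 84.2 to 130 CPM in Ezr-KOm libraries, is the 1 list without overlap.

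T and NK cell markers, to which Il7r also belongs, summed to 109 to 145 CPM in WT and 112 to 181 CPM in Ezr-KOm libraries. Without Il7r they summed to 92.2 to 125 and 83.9 to 150 CPM. Dendritic cell markers, which include Ccr7 and Ccl22, summed to 1932 to 2264 CPM in WT and 2016 to 2474 CPM in Ezr-KOm libraries, with 17 of 22 above 0 (median 0.27). Neutrophil markers summed to 1105 to 1552 and 1121 to 1430 CPM, and Ly6g, which defines the cell, was under 1 CPM on average in both genotypes. Padi4, a marker of that list in the chromosome 4 region, fell by 1.42 on the log2 scale (SE 0.34). B and plasma cell markers summed to 782 to 1272 and 854 to 1207 CPM. The sums of alveolar macrophage, eosinophil, basophil and mast cell, and erythrocyte and platelet markers overlapped as well. In the exact two-sided permutation tests of the sums of the 13 marker lists the smallest p was 0.1, the least that 3 libraries against 3 can give, and the adjusted p was at least 0.910. Xist was found in every library, at 25.6 to 53.6 CPM in WT and 40.6 to 58.4 CPM in Ezr-KOm libraries.

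Immunoglobulin genes supplied a share of the calls. Of 170 immunoglobulin genes and segments tested 31 passed the study's rule (18.2%, against 1.83% of all genes), 17 higher and 14 lower, out of the 227 calls outside the 2 regions. Their summed level was 476, 843 and 677 CPM in WT and 684, 1073 and 587 CPM in Ezr-KOm libraries, with overlap. The most abundant was Igha in 5 libraries, and without Ezr-KOm replicate 2 the count was 21 of 183 tested (11.5%). The part of B and plasma cells in these calls was not tested.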

How the data were processed

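RNA-seq libraries of sorted moMs, tnsIMs and matIMs were made by the authors with a low-input full-length cDNA kit that does not mark strand, and only RNA with a high integrity number was used. The authors aligned the reads to GRCm39 with STAR 2.7.9a and a Gencode annotation and deposited whole-number counts per gene without normalization. All 18 columns were matched to samples by name. Genes were kept by edgeR's filterByExpr on the 6 groups with a minimum count of 10, which left 15811 of 21254 genes. After TMM scaling, all libraries entered a single quasi-likelihood fit with a term for each group (edgeR 4.0.16, R 4.3.3). p-values were adjusted by the Benjamini-Hochberg method over all genes tested. The tnsIM libraries differed from each other by more than sampling noise.

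The genes named were Ezr, every gene at an adjusted p under 0.05, outside the 2 regions up to 12 genes per direction, by smallest p, among those that met the study's rule at a mean of at least 5 CPM, the genes the study names for tnsIMs, and in each group the members with an unadjusted p under 0.05 or, with none, its 2 most abundant. Regions, lists and genes were chosen with earlier results of these data known. Gene groups were described by counts and medians, with no set test. A gene that passed the low-count filter only through 1 genotype had to differ.

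Copies were found with BLAST 2.17.0 on transcripts of a later Gencode annotation of the same build. Marker sums were compared by exact permutation with scipy 1.17.1. Deviations from the group means correlated at 0.242, 0.188 and 0.315 between same-numbered WT and Ezr-KOm tnsIM libraries. Between others the correlation was at most -0.0058, but deviations cancel out within a group, so these values are not independent of the first. This pattern was found in the data, and the labels do not say what a number marks. The main fit had no term for the number. With the replicate block 868 genes (5.49%) had an unadjusted p under 0.05 by edgeR, against 512 (3.24%) in the main fit. The fit was tested on simulated data. The alternatives were DESeq2 1.42.0, 2 other scalings, 2 other filters, a robust fit, tnsIMs fitted alone, the replicate block and each library left out.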

Additional observations from a re-analysis of the deposited data

How the results depend on the processing

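The study's rule gave 290 genes in tnsIMs, 582 with no filter on low counts and 105 with at least 10 counts in every library (outside the 2 regions 227, 505 and 68, inside 63 and 37 with the strict filter), and without 1 library 278 to 455 genes (212 to 384 outside, the highest without WT replicate 3). At an adjusted p under 0.05 there were 26 genes, 55 with DESeq2 (23 outside, 32 inside), 7 when the tnsIM libraries were fitted alone (4 outside, 3 inside, Ezr not among them) and 13 to 21 without 1 library (5 to 9 outside, 8 to 15 inside, the fewest without WT replicate 1). All 26 were among the 55. Without WT replicate 1 the adjusted p of Ezr was 0.0508. Outside the regions 5 passed with the strict filter and 14 with the replicate block, which changed no call of a named gene beyond those given above. The interaction counts were 0 in each setting run. The causes were not tested. Of 1564 values of named genes, 1419 kept direction and side of the threshold, 95 no longer passed it, 17 newly did, and 33 values of 13 genes changed sign, none of them at an unadjusted p under 0.05 before. With both replicate 2 libraries left out, a setting chosen after seeing the data, these were S1pr1 0.1247, Pold2 0.0037, Cxcl2 -0.0449, Actb -0.1754, Mcl1 -0.0186 and Irf5 0.0901. Zyx was 0.0097 with library totals, 0.0085 with tnsIMs fitted alone and 0.0037 with the block added to that fit (also chosen later). Without 1 library the ranges were -0.1244 to 0.3976 for Actb, -0.1171 to 0.0309 for Akt1, -0.2115 to 0.3507 for Btg2, -0.1808 to 0.2577 for Cdkn1a, -0.0187 to 0.3488 for Il1a, -0.4218 to 0.1836 for Irf1, -0.1708 to 0.0128 for Irf5, -0.1044 to 0.4539 for Mcl1, -0.3039 to 0.239 for S1pr1, -0.2735 to 0.0825 for Tln1 and -0.0517 to 0.088 for Zyx. Genes under 1 CPM rest on few counts, and 3 libraries per genotype limit what can be called.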
